A study of Oryza sativa with 36 samples.

Results

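Kinesin motor genes of rice were followed in leaves, roots and young panicles with and without drought. Members were the genes with a symbol or synonym made of KIN, a number and a letter in the RefSeq gene table, which gave 35 genes. Of these, 32 had a probe set with a single gene on the Affymetrix rice genome array, among 17905 genes with such a probe set and 57258 probe sets tested. KIN12F, KIN14D and KIN14P had none and were not analysed here. A single probe set stood for 29 genes, and for KIN8B, KIN13A and KIN14K, which had several, the one with the highest mean was used. The 32 measured genes comprised 1 of family 4, 2 of family 5, 7 of family 7, 1 of family 8, 3 of family 10, 2 of family 12, 2 of family 13 and 14 of family 14.

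All plants were DK151, a drought-tolerant rice line bred from introgression lines of IR64, so every comparison lies within 1 genotype and no sensitive line was measured. Plants grew in tubes of Turface, a baked clay, and droughted plants had their nutrient solution drained until the leaf relative water content was 65% to 75%. By the study's account, stress showed after 3 days at tillering and panicle elongation and after 2 at booting. Between booting and the earlier stages, stage and length of drought therefore cannot be told apart. There were 36 arrays in 12 groups of 3: leaves at 3 stages (tillering, panicle elongation, booting), roots at the first 2 of these and young panicles at booting, each droughted and as control. Each array held RNA from 1 plant.

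Kinesins are motor proteins that use ATP to walk along microtubules or to remodel their ends. Most families walk toward the plus end, while many members of family 14 walk toward the minus end, and flowering plants, which lack cytoplasmic dynein, carry an enlarged family 14. Families 5, 7, 10, 12 and 13 contain proteins that build the mitotic spindle or the phragmoplast, the plant structure that lays down the new cell wall between daughter cells. Others act in cells that no longer divide, in cell elongation, wall deposition, nuclear positioning and the coupling of microtubules to actin filaments.

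Values are normalized intensities on a linear scale, given per array or as mean ± SD of 3 arrays. Changes are log2 differences ± SE from 1 limma model over all 12 groups, and a gene was counted as changed where p, adjusted over all probe sets by Benjamini-Hochberg, was under 0.05. Intensities of different probe sets are not compared with each other, since each binds with its own strength. In bulk tissue, fewer cells of a type and less RNA per cell cannot be told apart.

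Replicate arrays correlated at 0.944 to 0.992 with the others of their group, and replicate 2 of control leaves at panicle elongation was the lowest of all 36. In droughted panicles, replicate 2 was the lowest of its 3 arrays for 25 of the 32 kinesins, with a median deviation of -0.25 (log2). Summed over 14 floral organ genes, intensity was 25010 to 27360 in droughted panicles and 26310 to 30110 in control panicles, against 3434 to 3462 in control leaves at booting. The 7 root markers summed to 1893 to 2877 in droughted and 16180 to 23470 in control roots at panicle elongation, and to 2298 to 2506 in droughted and 22860 to 30330 in control roots at tillering. In control leaves they summed to 2312 to 5206 at panicle elongation and to 1469, 2500 and 15300 at tillering. These markers thus did not set droughted roots apart from control leaves, and 1 control leaf array at tillering came near the control roots. RBCS, the small subunit of Rubisco, was at 109, 1201 and 4328 on the 3 arrays of control roots at panicle elongation, so those arrays differed in a leaf transcript. In droughted roots at tillering it was at 351, 1764 and 248, so replicate 2 stood out there. The part of these differences in the kinesin results was not tested, apart from fits that leave out 1 array.

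In control plants the kinesins were mostly higher in young panicles than in leaves at booting: 25 were higher and 4 lower. Over all probe sets 22.9% were higher and 27.6% lower in this comparison, and among the 31654 probe sets with a mean above the median of all values, to which 29 of the kinesins belong, 32.9% were higher. The median kinesin difference was 2.08 (log2), against -0.11 over all probe sets. Of the 25 genes, 13 were at least 5-fold higher, against 5.21% of all probe sets. Control panicles were the highest of the 12 groups for 19 of 32 kinesins, against 12.4% of all probe sets, and control roots at tillering for 7, against 7.75%.

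**Figure D1:**
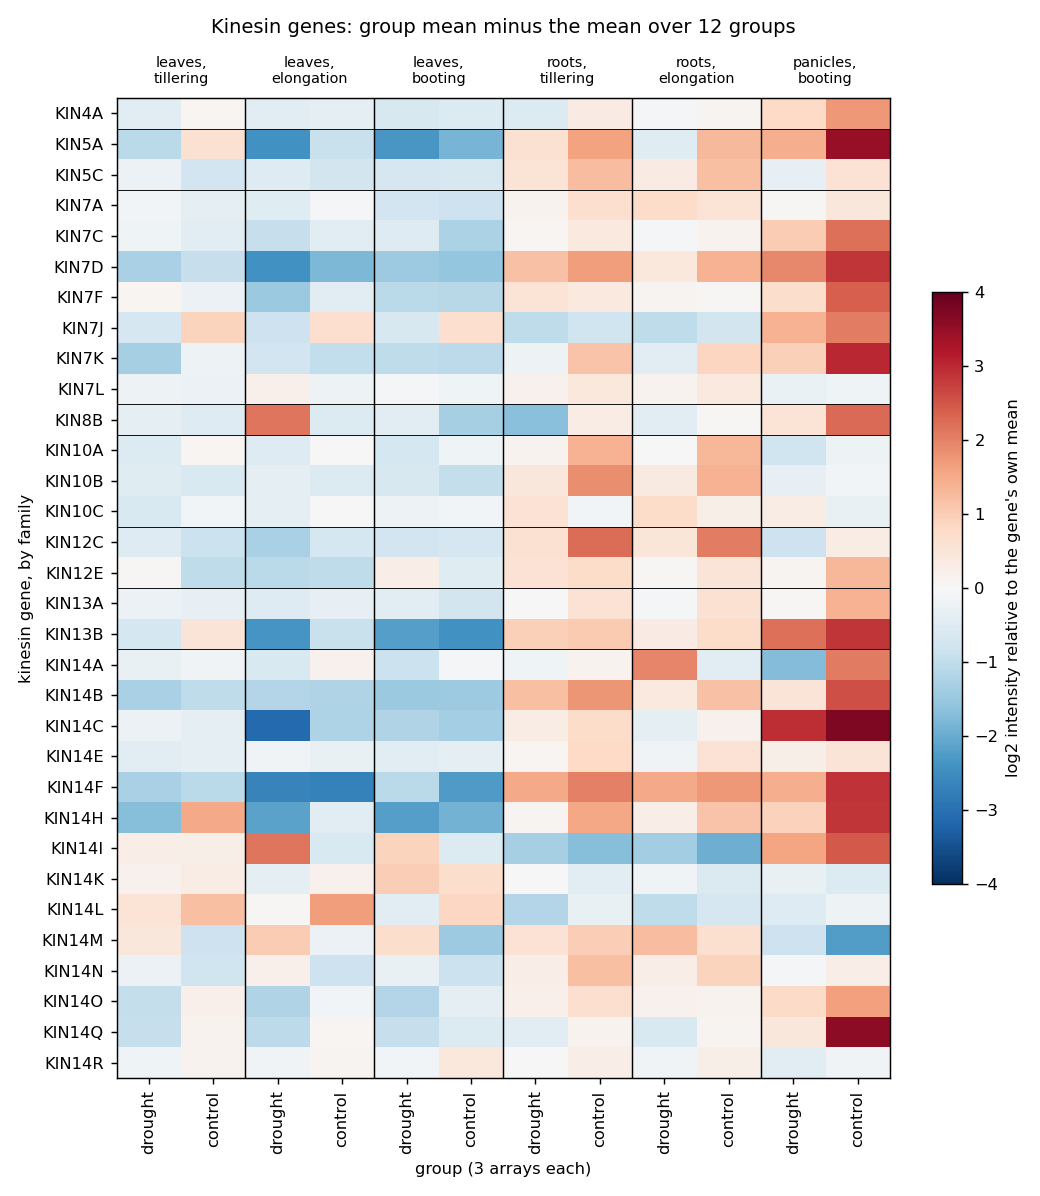
Log2 intensity of each of 32 kinesin genes (rows, by family) in 12 groups (columns, 3 arrays each, drought left of control), minus the gene's own mean over the groups; red is above and blue below that mean. The column of control panicles is red for most rows, and it is the highest group for 19 of 32 genes.

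KIN5A, of the family that slides antiparallel spindle microtubules apart, had 985, 1246 and 1087 in control panicles, against 21.2, 33.8 and 27.4 in control leaves (log2 difference 5.35 ± 0.23, adjusted p = 1.2e-17). KIN13B, of a family that takes microtubule ends apart, had 3119, 3112 and 2820 in control panicles, against 64.3, 108 and 68.5 in control leaves (5.27 ± 0.23, adjusted p = 1.11e-17). Its only probe set carries the array maker's mark for probes that may bind several transcripts. KIN14F averaged 698 ± 66.5 in control panicles and 19.5 ± 3.68 in control leaves (5.17 ± 0.24). KIN14C averaged 1272 ± 129 in control panicles and 37.8 ± 6.92 in control leaves (5.09 ± 0.29). In all 4 genes the lowest panicle array was above the highest leaf array many times over. The 4 kinesins that were lower in control panicles all belong to family 14. They were KIN14K (-1.25 ± 0.14), KIN14L (-1.01 ± 0.25), KIN14M (-0.77 ± 0.28) and KIN14R (-0.56 ± 0.21). The KIN14K probe set carries the same mark as that of KIN13B. Another KIN14K probe set with the mark gave -2.40, and one without it, with a mean of 8.08 over all arrays, gave -0.20 and did not pass. KIN14M had 51.6, 45.2 and 43.3 in control panicles, against 76.1, 42.0 and 159 in control leaves, so its arrays overlapped. It did not pass without replicate 3 of control leaves (-0.28, adjusted p = 0.362) or replicate 2 or 3 of control panicles (-0.75 and -0.72), nor did KIN14R without replicate 2 of control leaves or replicate 1 or 2 of control panicles (-0.49 to -0.56).

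Control roots also carried more of most kinesins than control leaves. At tillering 22 were higher and 4 lower in roots, against 24.4% and 27.7% of all probe sets, with a median of 0.87 against -0.04 over all probe sets. At panicle elongation 22 were higher and 4 lower, against 22.2% and 25.4%, with a median of 0.86 against -0.05. The largest rises at tillering were those of KIN14F (3.10 ± 0.24), KIN12C (3.09 ± 0.16), KIN14B (2.79 ± 0.25) and KIN7D (2.60 ± 0.18). KIN12C belongs to a family whose Arabidopsis members work at the phragmoplast. It had 218, 183 and 204 in control roots at tillering, against 23.2, 26.4 and 21.5 in control leaves. At panicle elongation KIN14F (4.46 ± 0.24), KIN7D (3.16 ± 0.18), KIN12C (2.76 ± 0.16) and KIN14B (2.40 ± 0.25) led again. KIN7J, KIN14I, KIN14K and KIN14L made up the 4 lower genes at each stage. For KIN14K the other marked probe set gave -2.22 at tillering and -2.16 at panicle elongation. Its dim unmarked probe set gave -0.09 and 0.01 and did not pass. KIN14I, also named KCBP, is a motor that binds calmodulin, and its Arabidopsis counterpart shapes leaf hairs. It averaged 70.3 ± 13.6 in control roots and 269 ± 16.9 in control leaves at tillering, and 58.7 ± 10.2 in control roots and 164 ± 75.2 in control leaves at panicle elongation (-1.95 ± 0.26 and -1.36 ± 0.26). KIN14L averaged 187 ± 72.7 in control roots and 936 ± 395 in control leaves at panicle elongation (-2.33 ± 0.25).

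Some kinesins were lower in control leaves of later stages, with counts that depended on the fit. At panicle elongation 0 were higher and 7 lower than at tillering, against 2.98% and 3.96% of all probe sets. At booting 2 were higher and 10 lower than at panicle elongation, against 9.34% and 11.4%. With each comparison fitted alone 3 and 3 passed at these steps, and by the methods' t-test after Benjamini-Hochberg 0 and 0. Over these 3 stages KIN14H averaged 669 ± 26.0, 177 ± 39.6 and 63.6 ± 7.07 in control leaves, and both steps passed (-1.94 ± 0.23 and -1.46 ± 0.23). KIN5A averaged 150 ± 25.3, 53.3 ± 8.78 and 27.5 ± 6.26 (-1.49 ± 0.23 and -0.97 ± 0.23). KIN13B averaged 602 ± 56.1, 234 ± 90.6 and 80.4 ± 24.3 (-1.43 ± 0.23 and -1.52 ± 0.23). KIN14F passed at the first step only (-1.63 ± 0.24). The 2 genes that were higher at booting than at panicle elongation were KIN12E (0.55 ± 0.18) and KIN14K (0.55 ± 0.14). KIN12E did not pass without replicate 1 or 3 of either group (0.41 to 0.51), nor KIN14K without replicate 2 at panicle elongation or replicate 3 at booting (0.41 each). Without replicate 2 of control leaves at panicle elongation, 7 rather than 12 kinesins passed at the second step. In control roots, 0 kinesins passed between panicle elongation and tillering by limma, against 1.96% of all probe sets. At an unadjusted p under 0.05 there were 6, the lowest adjusted p was 0.0861, and 1 passed without replicate 2 of control roots at panicle elongation.

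Drought lowered most kinesins in young panicles at booting: 22 of 32 were lower and 2 higher. Of all probe sets 15.3% were lower and 11.6% higher, and of those with a mean above the median 22.8% and 16.9%. The median kinesin change was -0.89, against -0.04 over all probe sets. Without replicate 2 of droughted panicles 19 were lower and 2 higher, and KIN13B (-0.43), KIN14C (-0.50) and KIN14I (-0.71) no longer passed.

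**Figure D2:**
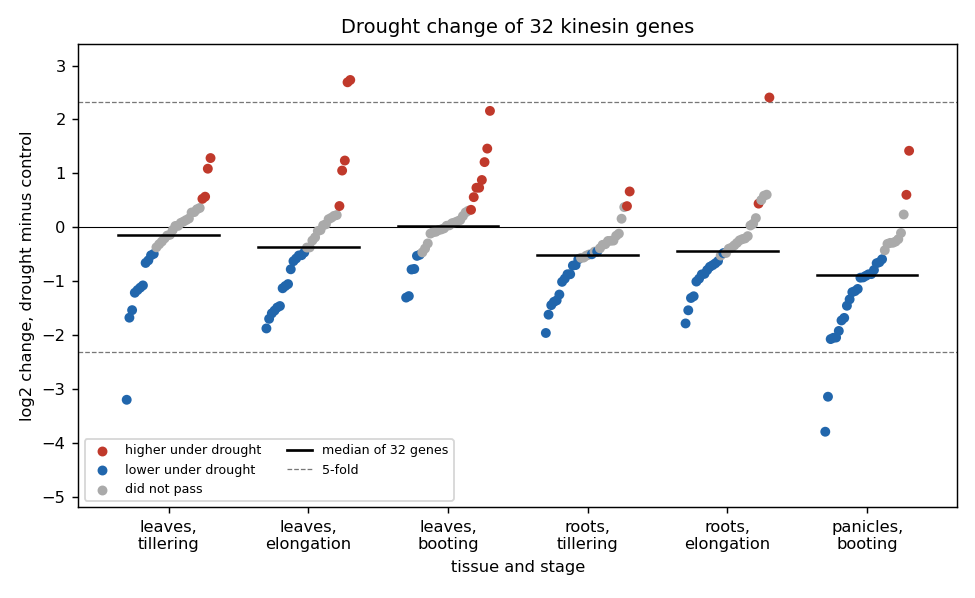
Log2 change, drought minus control, of 32 kinesin genes (points, ordered by size) in each tissue and stage; blue and red points passed as lower and higher, grey points did not pass, black bars are medians and dashed lines mark 5-fold. The median is lowest in panicles, at -0.89, and close to 0 in leaves at booting, at 0.03.

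The 2 falls of at least 5-fold, against 0.995% of all probe sets, were in family 14. KIN14A had 27.9, 26.9 and 30.2 in droughted panicles, against 427, 455 and 313 in control panicles. The droughted arrays lay close together and every one was far below every control array, with a change of -3.80 ± 0.27 (adjusted p = 6.41e-12). KIN14Q, also named KCH1, carries a calponin-homology domain that binds actin and so can link actin filaments with microtubules. It had 67.7, 24.4 and 83.8 in droughted panicles, against 420, 528 and 434 in control panicles (-3.15 ± 0.26, adjusted p = 1.25e-10). Replicate 2 of droughted panicles was again the lowest, and without it the change was -2.61.

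Further falls reached genes of several families. KIN14B averaged 55.8 ± 15.4 in droughted and 230 ± 32.4 in control panicles (-2.08 ± 0.25). KIN5A had 348, 157 and 341 in droughted panicles, against 985, 1246 and 1087 in control panicles (-2.05 ± 0.23, adjusted p = 4.01e-08). KIN7K had 470.2, 334 and 488 in droughted panicles, against 1841, 1872 and 1575 in control panicles (-2.05 ± 0.15, adjusted p = 2.13e-11). In each of these the 2 groups of arrays were apart, and all 3 genes were among those far higher in control panicles than in control leaves. That comparison uses the same control panicle arrays, and most kinesins passed in it as higher, so the overlap is no separate result. KIN13A, also named SRS3, is a kinesin-13 whose rice mutant has small round seeds. It had 722, 661 and 802 in droughted panicles, against 1986, 1904 and 1641 in control panicles (-1.34 ± 0.11, adjusted p = 9.34e-11). A second probe set of the gene gave -1.69.

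By family, both measured genes of families 5, 12 and 13 fell in droughted panicles, as did 5 of 7 in family 7, 8 of 14 in family 14, 1 of 3 in family 10, and the single genes of families 4 and 8. KIN4A, also named GDD1 and BC2, is needed in rice for ordered wall fibrils and stem strength. It averaged 1509 ± 386 in droughted and 2833 ± 263 in control panicles (-0.94 ± 0.17, adjusted p = 7.68e-05). KIN7A, the rice NACK, is related to a tobacco kinesin that expands the phragmoplast. It had 95.8, 73.4 and 91.3 in droughted panicles, against 119, 123 and 107 in control panicles, and did not pass (-0.43 ± 0.22, adjusted p = 0.156). KIN7A was the only kinesin that passed in none of the 6 drought comparisons.

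KIN14M and KIN10C were the 2 kinesins that rose in droughted panicles by the probe sets used. KIN14K did not pass by its own (0.23, adjusted p = 0.27 by limma, mean 237 over all arrays). Another of its probe sets, with a mean of 234, gave 0.89 (adjusted p = 0.0354 by limma). KIN14M had 97.9, 177 and 111 in droughted panicles, against 51.6, 45.2 and 43.3 in control panicles (1.42 ± 0.28, adjusted p = 0.000229). Its highest value was on replicate 2, the array that was lowest for most others. KIN10C averaged 104 ± 9.76 in droughted and 68.6 ± 9.19 in control panicles (0.60 ± 0.19, adjusted p = 0.0205), and did not pass without replicate 1 or 2 of control panicles or replicate 1 of droughted panicles (0.52 to 0.58). The anther gene CYP703A3, a hydroxylase of pollen wall formation, was at 31.8, 96.7 and 32.1 in droughted panicles, against 2627, 1541 and 1485 in control panicles. It was the most changed of 10 anther genes, of which 2 fell, 1 rose and 7 did not pass, and whose summed intensity was 19880 to 21330 in droughted and 20840 to 25310 in control panicles. Their part in the kinesin changes was not tested.

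**Figure D3:**
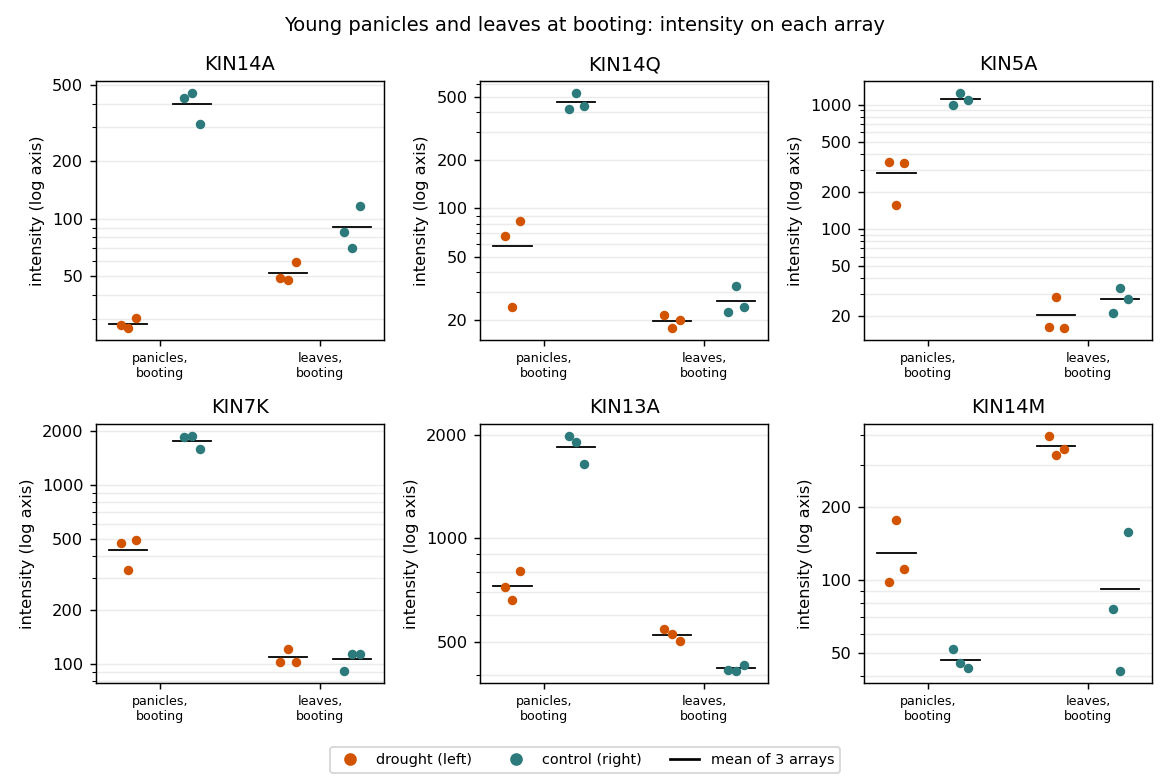
Intensity on each array (points, log axis) of 6 kinesin genes in young panicles and leaves at booting, drought (orange) left of control (green), with the mean of 3 arrays as a bar. In KIN14A, KIN14Q, KIN5A, KIN7K and KIN13A all droughted panicle arrays are below all control panicle arrays, and in KIN14M they are above.

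In leaves at booting, from plants of the same stage, drought raised 8 kinesins and lowered 6, with a median change of 0.03. Of all probe sets 15.3% were higher and 21.5% lower, and of those with a mean above the median 24% and 26.9%. The share of kinesins that rose was thus close to that of the brighter probe sets. Without replicate 1 of droughted leaves 6 were higher and 3 lower. The difference between the drought change in panicles and that in leaves passed for 21 kinesins, with 19 lower and 2 higher in panicles, against 13.7% and 13.5% of all probe sets, or 21.4% and 17.9% of those with a mean above the median. The median of that difference was -0.89. KIN14A (-3.02 ± 0.38), KIN14Q (-2.75 ± 0.37) and KIN14F (-2.67 ± 0.35) differed most, together with KIN8B (-2.61 ± 0.38) and KIN14I (-2.33 ± 0.36). KIN14F averaged 270 ± 105 in droughted and 698 ± 66.5 in control panicles (-1.46 ± 0.24), and 45.8 ± 12.9 in droughted and 19.5 ± 3.68 in control leaves (1.21 ± 0.24). KIN14Q averaged 19.9 ± 1.82 in droughted and 26.5 ± 5.45 in control leaves. All leaf values of these genes at booting were below the median of all values, 59.7, where a fall is hard to measure. KIN7J and KIN14L fell more in leaves than in panicles (differences of 0.64 ± 0.18 and 0.97 ± 0.35). The difference of KIN14L did not pass when any 1 of 7 of the 12 arrays was left out (adjusted p = 0.0501 to 0.104 by limma).

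The rises in droughted leaves at booting were led by KIN14M and KIN14I. KIN14M had 394, 328 and 348 in droughted leaves, against 76.1, 42.0 and 159 in control leaves (2.16 ± 0.28, adjusted p = 5.63e-07). KIN14I had 501, 352 and 428 in droughted leaves, against 162, 142 and 159 in control leaves (1.46 ± 0.26, adjusted p = 4.57e-05). KIN8B (0.88 ± 0.27) rose too, and did not pass without replicate 1 of droughted leaves (0.58, adjusted p = 0.118). The falls were led by KIN7J (-1.31 ± 0.12), KIN14L (-1.28 ± 0.25), KIN14O (-0.79 ± 0.15) and KIN14A (-0.78 ± 0.27), the last of which did not pass without replicate 3 of control leaves or replicate 1 or 2 of droughted leaves (-0.58 to -0.74).

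In roots the kinesins that changed were mostly lower under drought. At tillering 15 were lower and 2 higher, against 15.6% and 12% of all probe sets, with a median of -0.52 against -0.03. At panicle elongation 14 were lower and 2 higher, against 15.1% and 12.4%, with a median of -0.44 against -0.02. Among probe sets with a mean above the median, 21.7% and 21.9% were lower at these stages. The stages shared 11 lower genes, 73.3% of those at tillering and 78.6% of those at panicle elongation.

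KIN12C had 71.1, 65.1 and 59.9 in droughted roots at tillering, against 218, 183 and 204 in control roots (-1.62 ± 0.16, adjusted p = 3.98e-09). At panicle elongation it had 53.9, 58.5 and 71.2 in droughted roots, against 165, 166 and 204 in control roots (-1.54 ± 0.16, adjusted p = 9.72e-09). The droughted arrays were below the control arrays at both stages by a similar factor. KIN5A changed by -1.02 ± 0.23 at tillering and by -1.79 ± 0.23 at panicle elongation, where it had 65.9, 79.2 and 66.1 in droughted roots, against 228, 248 and 251 in control roots. KIN7K fell at tillering (-1.36 ± 0.15) and at panicle elongation (-1.28 ± 0.15). KIN10A, also named STD1, is required for cell division in rice. It had 68.1, 78.8 and 59.2 in droughted roots at tillering, against 173, 155 and 160.4 in control roots (-1.25 ± 0.19) and averaged 62.0 ± 4.43 in droughted and 155 ± 20.1 in control roots at panicle elongation (-1.32 ± 0.19). KIN8B had 65.7, 50.5 and 58.6 in droughted roots at tillering, against 249, 194 and 239 in control roots (-1.96 ± 0.27), the largest root fall, and KIN14H fell at tillering as well (-1.45 ± 0.23). The KIN8B probe set carries the mark for probes that may bind several transcripts. The gene's other probe set, with a mean of 3.46 over all arrays, gave -0.54 in roots at tillering and did not pass (adjusted p = 0.51 by limma).

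Rises in droughted roots were few. At tillering KIN10C (0.66 ± 0.19) and KIN14K (0.39 ± 0.14) rose, and at panicle elongation KIN14K (0.44 ± 0.14) and KIN14A. KIN10C did not pass without replicate 3 of droughted roots (0.57, adjusted p = 0.0594). KIN14K passed at tillering only with all 3 control arrays and replicates 2 and 3 of droughted roots, and at panicle elongation only with replicate 3 of control roots and replicates 1 and 3 of droughted roots (0.29 to 0.44 without them). With a replicate block it did not pass at tillering (adjusted p = 0.0502). Of the gene's 2 other probe sets, one gave 0.90 at tillering (adjusted p = 0.0315) and one, with a mean of 8.08 over all arrays, gave -0.10 and did not pass. KIN14A had 263, 395 and 464 in droughted roots at panicle elongation, against 74.4, 71.2 and 61.0 in control roots (2.41 ± 0.27, adjusted p = 4.83e-08). This was the only root change of at least 5-fold, against 1.12% of all probe sets that rose as far, and it stayed just under 5-fold without replicate 3 of either group (2.32 without the control and 2.23 without the droughted array). The same gene was at 91.0, 81.7 and 76.9 in droughted and at 115, 81.9 and 117 in control roots at tillering, where it did not pass (-0.32 ± 0.27). KIN14A thus had its largest rise in roots at panicle elongation and the largest kinesin fall of all in panicles at booting. Its arrays did not overlap in either.

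In leaves at tillering 11 kinesins were lower and 4 higher under drought, against 26.4% and 16.9% of all probe sets, or 31.5% and 23.2% of those with a mean above the median. The share of kinesins that fell was thus close to the background. The median was -0.15, against -0.08 over all probe sets. KIN14H had 75.9, 66.6 and 75.5 in droughted leaves, against 694, 642 and 671 in control leaves (-3.20 ± 0.23, adjusted p = 6.07e-12), the only 5-fold change at this stage, where 1.11% of all probe sets fell as far. The next falls were those of KIN5A (-1.68 ± 0.23), KIN7J (-1.54 ± 0.12) and KIN13B (-1.22 ± 0.23). KIN14H, KIN5A and KIN13B were also the 3 kinesins that were lower at both steps between control leaf stages, among 7 lower at the first step and 10 at the second. The first step and the drought change use the same control arrays at tillering, so this overlap is not independent. KIN14H in droughted leaves at tillering (72.7 ± 5.23) stood near its level in control leaves at booting (63.6 ± 7.07). The rises were KIN14M (1.28 ± 0.28), KIN12E (1.08 ± 0.18), KIN14N (0.57 ± 0.13) and KIN5C (0.53 ± 0.12). KIN5A and KIN5C, both of family 5, therefore changed in opposite directions in these leaves.

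In leaves at panicle elongation 15 were lower and 5 higher, against 29.9% and 19% of all probe sets, or 42% and 22.9% of those with a mean above the median. The median was -0.38, against -0.09. Without replicate 2 of control leaves, 14 were lower and 5 higher. The falls were led by KIN14C (-1.88 ± 0.29), KIN14H (-1.70 ± 0.23), KIN14L (-1.60 ± 0.25) and KIN5A (-1.55 ± 0.23). KIN14C had 10.9, 14.0 and 8.75 in droughted leaves, against 54.7, 21.5 and 56.5 in control leaves, and all its droughted values were below the median of all values, 59.7. RBCS averaged 855 ± 193 in droughted and 14490 ± 188 in control leaves at this stage.

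KIN14I and KIN8B were the 2 kinesins that rose at least 5-fold in leaves at panicle elongation, against 2.62% of all probe sets. Their means in droughted leaves, 1006 ± 203 and 821 ± 153, stood near those of control panicles at booting, 1233 ± 79.8 and 899 ± 95.6. KIN14I had 1227, 830 and 961 in droughted leaves, against 201, 77.7 and 214 in control leaves (2.73 ± 0.26, adjusted p = 4.74e-10). The lowest control value was on replicate 2, and without that array the change was 2.26, just under 5-fold. KIN8B had 963, 658 and 842 in droughted leaves, against 116, 146 and 117 in control leaves (2.69 ± 0.27, adjusted p = 1.21e-09). KIN8B's probe set carries the mark for probes that may bind several transcripts. The gene's other probe set, with a mean of 3.46 over all arrays, gave -0.53 and did not pass (adjusted p = 0.432), so the rise rests on 1 of 2 probe sets. The same holds for every other KIN8B change that passed. KIN14M (1.24 ± 0.28), KIN14N (1.05 ± 0.13) and KIN7L (0.39 ± 0.11) rose as well.

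**Figure D4:**
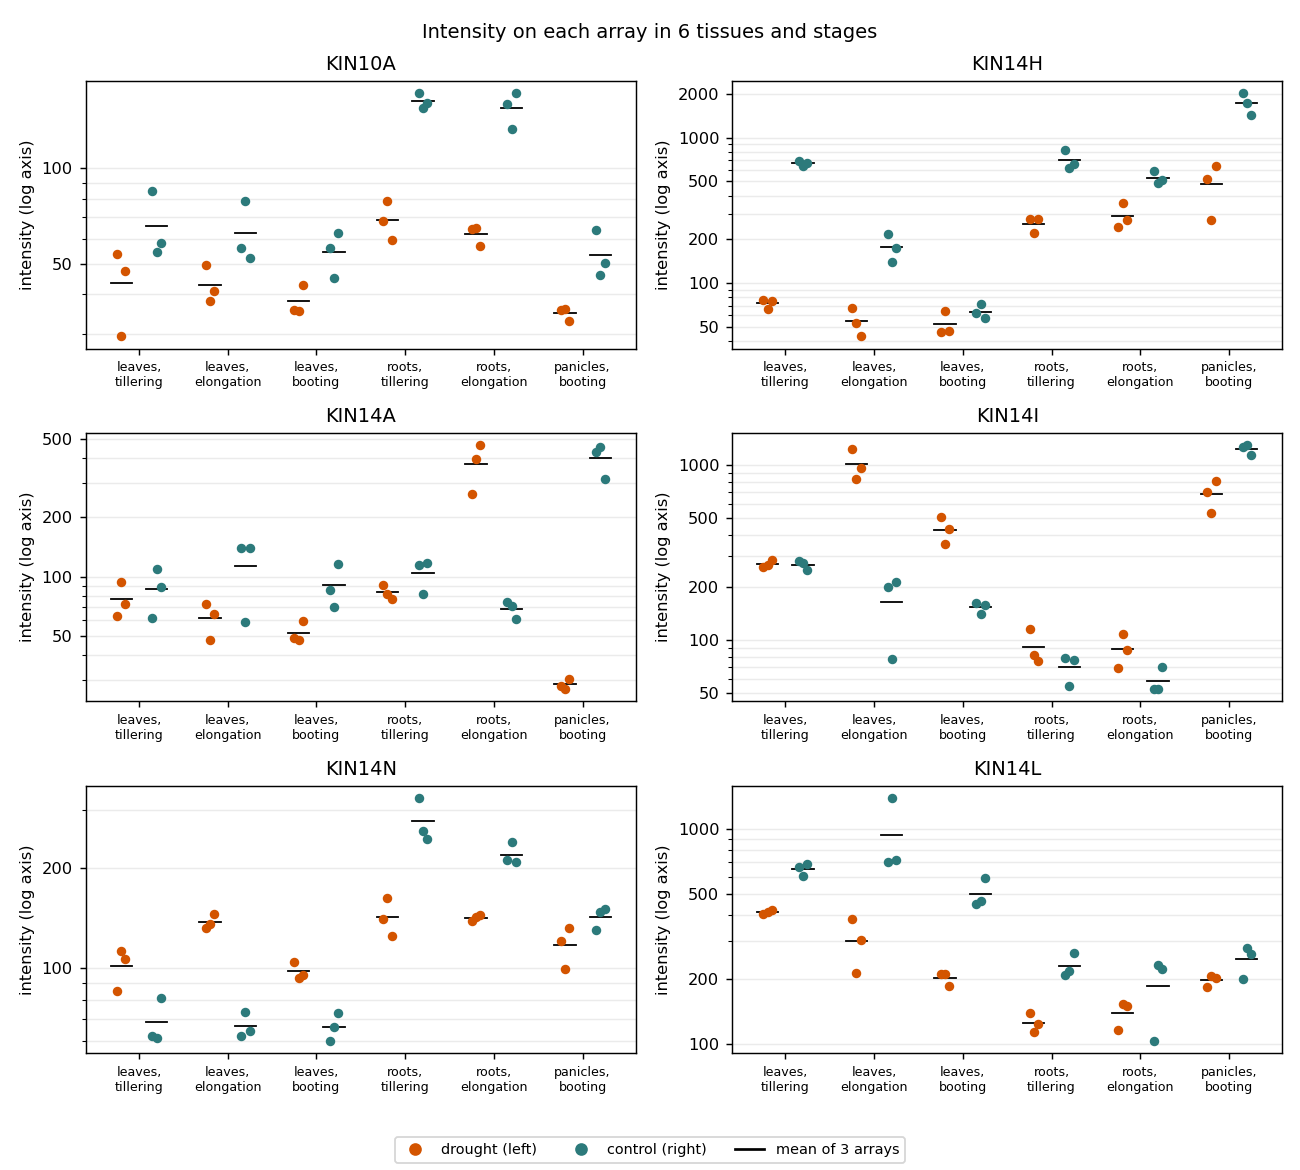
Intensity on each array (points, log axis) of 6 kinesin genes in every tissue and stage, drought (orange) left of control (green), with the mean of 3 arrays as a bar. KIN10A and KIN14H are lower or level under drought throughout, KIN14A is higher in droughted roots at panicle elongation and lower in droughted panicles, and KIN14N is higher in droughted leaves and lower in droughted roots.

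Some kinesins moved the same way in every organ and others did not. Over the 6 drought comparisons 29 kinesins fell in at least 1, 13 rose in at least 1 and 11 did both. Of all probe sets 57.4% fell, 41% rose and 18.8% did both in this sense, and of those with a mean above the median 70.4%, 51.1% and 27.5%, so the share of kinesins that rose, 13 of 32, was at or under these shares. KIN10A fell in all 6. Outside roots its falls were small, at -0.51 to -0.62. It did not pass at tillering without replicate 1 of control or replicate 2 of droughted leaves (-0.42 and -0.36), at panicle elongation without replicate 2 of control or replicate 2 or 3 of droughted leaves (-0.34 to -0.50), at booting without replicate 1 or 3 of control or 1 or 2 of droughted leaves (-0.41 to -0.49), or in panicles without replicate 1 of control or 3 of droughted ones (-0.46 and -0.56). The 8 kinesins that fell in roots at both stages and in panicles were KIN5A, KIN5C, KIN7D, KIN7K, KIN10A, KIN12C, KIN13A and KIN14H. KIN7J, KIN10A, KIN14L and KIN14O fell in leaves at all 3 stages, though KIN14L at tillering (-0.66 ± 0.25) passed with all arrays and with replicate 2 of control leaves left out, and with no other array left out. KIN7J had 75.5, 63.2 and 56.9 in droughted leaves at tillering, against 206, 175 and 186 in control leaves (-1.54 ± 0.12), with changes of -1.49 ± 0.12 at panicle elongation and -1.31 ± 0.12 at booting. In roots KIN7J did not pass at tillering (-0.25 ± 0.12) or at panicle elongation (-0.29 ± 0.12).

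KIN14M and KIN14N rose in leaves at all 3 stages. KIN14N had 84.8, 112 and 106 in droughted leaves at tillering, against 62.4, 61.5 and 81.2 in control leaves. In roots it had 140, 162 and 124 under drought at tillering, against 326, 259 and 245 without it (-0.96 ± 0.13). The difference between the drought change in roots and that in leaves passed for KIN14N at tillering (-1.52 ± 0.19) and at panicle elongation (-1.68 ± 0.19). Over all kinesins that difference was lower in roots for 11 and higher for 6 at tillering, against 14% and 18.7% of all probe sets, or 18.8% and 23.2% of those with a mean above the median. At panicle elongation it was lower for 11 and higher for 10, against 14.8% and 21.8%, or 19.3% and 31.7%, so the share that was higher was close to that of the brighter probe sets. The medians were -0.29 and -0.25.

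Other genes of the cytoskeleton and the cell cycle were counted beside the kinesins. Over all probe sets, 15.3% fell and 11.6% rose in droughted panicles, 15.6% and 12% in the roots of the first stage, 15.1% and 12.4% in those of the second, and 26.4% and 16.9%, 29.9% and 19%, and 21.5% and 15.3% in leaves over the 3 stages in order. Of 9 measured alpha and beta tubulins, which form the track of these motors, 8 fell in droughted panicles (median -1.48), 8 in roots at tillering (-1.03) and 7 in roots at panicle elongation (-0.93). In leaves 4 fell and 1 rose at tillering, 7 fell at panicle elongation and 6 fell at booting. The tubulin genes OsTUB8 (-2.79 ± 0.25) and OsTUB6 (-2.52 ± 0.26) fell most in panicles. Of 7 mitotic cyclins 4 fell in panicles, 5 in roots at tillering and 5 in roots at panicle elongation, where 1 rose. In leaves 2 of them rose and 1 fell at tillering, 3 rose and 1 fell at panicle elongation, and 0 passed at booting by limma. Of 19 replication genes 8 fell and 5 rose in panicles, 12 fell and 3 rose in roots at tillering, and 13 fell and 4 rose in roots at panicle elongation. In leaves at tillering 7 replication genes rose and 0 fell by limma, where 16.9% of all probe sets (23.2% of those with a mean above the median) rose and 26.4% (31.5%) fell. The later leaf stages did not repeat this: 2 replication genes rose and 5 fell at panicle elongation, and 3 rose and 2 fell at booting. Of 4 actins 2 fell in each of panicles and both roots, and 1 rose in panicles. In leaves 1 actin rose at tillering, 2 fell at panicle elongation, and 1 rose and 1 fell at booting.

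KIN14E and KIN14R had means under the median of all values in every group, and 11 kinesins were above it on every array.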

How the data were processed

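RNA of 36 samples was hybridised to Affymetrix rice arrays. The authors made CEL files with GCOS1.4, normalized them with dChip (invariant set) and deposited 1 linear intensity per probe set and array. The dChip version and the use of mismatch probes are not given in the sources used here. Values under 1 were set to 1 and log2 was taken, and 123 control probe sets were left out. Gene names came from the platform annotation and RefSeq. No sequence is shown.

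In R 4.3.3, limma 3.58.1 fitted 12 group means (24 residual and 3.76 prior degrees of freedom), two-sided, with Benjamini-Hochberg adjustment over 57258 probe sets, and the script was tested on simulated data. Replicates of a group are separate plants, and 3 per group limit the precision. Whether organs of 1 stage came from the same plants is not given in the sources used here, and the fits treat all arrays as independent.

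Members, lists and tests were chosen with earlier results of these data known. The genes named are the largest changes of each comparison, those at 5-fold and those with a second name. The brightest and dimmest were also chosen but are not ranked, since probe sets differ in binding. Others, such as KIN7K in panicles and the tubulins, were named after their values were seen. From planned lists, homeobox genes named OSH, Rac GTPases, a zeaxanthin epoxidase and a zinc transporter that matched by name alone were dropped. Histones (5 measured), D-type cyclins (9), cyclin-dependent kinases (11) and MAP70 proteins (4) were counted too: in droughted panicles 0, 5, 5 and 2 were lower and 0, 0, 4 and 1 higher. The 5 histones were all H2B genes, of 10 histone genes matched by name. The study's authors report H2A and H3 genes that drought strongly lowered in young panicles alone, and the counted histones include none of these. Myosins had 0 genes. Of 7 meiosis genes 3 rose and 1 fell in droughted panicles, and of 10 anther genes 1 rose and 2 fell.

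Alternatives were the study's 5-fold minimum, the methods' t-test, quantile normalization, median centring, a floor of 28.3 (25th percentile), leaving out dim probe sets, each comparison fitted alone, an intensity trend, a replicate block, each array left out, and other probe sets.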

Additional observations from a re-analysis of the deposited data

Results flagged for a closer look

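These kinesins had a drought change that differed between organs of the same stage by the test of the difference itself (limma, adjusted p under 0.05), with the largest differences named. Each value is the log2 change in roots or panicles minus that in leaves.

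At tillering, the difference was 1.76 for KIN14H (-1.45 in roots, -3.20 in leaves), 1.29 for KIN7J (-0.25 and -1.54) and 1.16 for KIN10C (0.66 and -0.50). It was -2.12 for KIN8B (-1.96 in roots, 0.16 in leaves), -1.98 for KIN12C (-1.62 and 0.36) and -1.68 for KIN14M (-0.39 and 1.28). All leaf values of KIN12C at tillering were below the median of all values. The KIN8B differences at every stage rest on the probe set marked as binding several transcripts.

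At panicle elongation, the difference was 3.19 for KIN14A (2.41 in roots, -0.78 in leaves), 1.35 for KIN14C (-0.53 and -1.88) and 1.26 for KIN14L (-0.34 and -1.60). It was -3.17 for KIN8B (-0.48 in roots, 2.69 in leaves), -2.15 for KIN14I (0.58 and 2.73) and -1.68 for KIN14N (-0.63 and 1.05). The fall of KIN14A in leaves did not pass without replicate 1 of control leaves (adjusted p = 0.117), replicate 3 of control leaves (0.115) or replicate 2 of droughted leaves (0.0977).

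At booting, the difference was 0.97 for KIN14L (-0.31 in panicles, -1.28 in leaves) and 0.64 for KIN7J (-0.67 and -1.31). It was -3.02 for KIN14A (-3.80 in panicles, -0.78 in leaves), -2.75 for KIN14Q (-3.15 and -0.40) and -2.67 for KIN14F (-1.46 and 1.21). All leaf values of KIN14Q and KIN14F at booting were below the median of all values. The difference of KIN14L passed in the fit of all arrays (adjusted p = 0.0376) and did not pass without replicate 3 of control leaves, any 1 replicate of droughted leaves, replicate 1 of control panicles, or replicate 2 or 3 of droughted panicles (adjusted p = 0.0501 to 0.104).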

How the results depend on the processing

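With the study's 5-fold minimum added, fewer kinesins were called: under drought 1, 2 and 0 in leaves over the 3 stages in order, 0 and 1 in roots over the first 2, and 2 in panicles. Between control organs, 13 were called in panicles against leaves and 5 in roots against leaves at each stage, and 0 between leaf stages. For the difference of drought changes between organs, 0, 2 and 5 were called at the 3 stages in order. The methods' t-test with the 5-fold minimum gave the same counts for drought, control organs and control leaf stages, both unadjusted and after Benjamini-Hochberg. Under drought these were 1, 2 and 0 in leaves and 0 and 1 in roots, in order of stage, and 2 in panicles. For panicles against leaves there were 13, for roots against leaves 5 at each stage, and for the steps between leaf stages 0 and 0. This t-test was not run for differences of drought changes. After Benjamini-Hochberg without a fold minimum it called 11 kinesins for drought in leaves at panicle elongation, 7 in leaves at booting, 17 between control roots and leaves at panicle elongation, and 0 for both steps between control leaf stages, where limma gave 7 and 12. With each comparison fitted alone these steps gave 3 and 3, and with the floor at the 25th percentile 1 kinesin passed between control root stages, where 0 had passed.

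With the replicate number as a block in the fit of all arrays, 6 of 265 single calls were lost and 0 reversed. Those at tillering were KIN14K under drought in roots (0.39), KIN13B between control roots and leaves (0.54) and the difference of KIN14K (0.53), and the others were KIN12E under drought in roots at panicle elongation (-0.48), KIN14C under drought in panicles (-0.80) and the difference of KIN13B at booting (-0.86). With the replicate block and each comparison fitted alone, an alternative chosen after seeing the data, drought in leaves at panicle elongation gave 13 and the control leaf steps gave 0 and 2. Same-numbered arrays correlated in their deviations at 0.083 to 0.31 in leaves and 0.089 to 0.42 in roots at tillering, or, among brighter probe sets, at 0.17 to 0.55 and 0.14 to 0.53. In the other comparisons not all 3 passed 0.1, and, although plants were grown in blocks, no source used here ties a number to a block, so the samples were taken to share only a number.

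With the other probe sets, 12 calls were lost and 7 values turned in sign, and none of those 7 passed: KIN8B under drought in leaves at panicle elongation (-0.53) and in its difference between roots and leaves (0.995), and KIN14K under drought in roots at tillering (-0.10) and leaves at panicle elongation (0.57), between control roots and leaves at panicle elongation (0.0109), and in its differences at tillering (-0.50) and panicle elongation (-0.29). Leaving out 1 array gave 12 to 15 kinesins for drought in leaves and 13 to 17 in roots at tillering, 17 to 21 and 13 to 15 at panicle elongation, and 9 to 14 in leaves and 20 to 23 in panicles at booting. Between control organs it gave 27 to 29 for panicles, 23 to 26 for roots at tillering and 22 to 29 at panicle elongation, and between control stages 6 to 8, 7 to 11 and, in roots, 0 to 1. Differences of drought changes gave 13 to 16, 18 to 22 and 19 to 22. In these fits 191 single calls were lost and 0 reversed.

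Quantile normalization lost 18 single calls, median centring 19, the intensity trend 1 and the floor 11, with 0 reversed. The filter on dim probe sets kept 29 of 32 kinesins. Signal limits KIN14E and KIN14R, which lay under the median in every group. It also limits kinesins that lay under the median in some groups, such as KIN5A, KIN14F and KIN14Q in leaves at booting.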
